A study of Homo sapiens with 6 samples.

Results

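Folate receptors and carriers bring folate into the cell, and one-carbon enzymes load it with single carbon units, mostly from serine, that are then used to make thymidylate, purines and methyl groups. Folate receptor alpha, encoded by FOLR1, binds folate at the surface of some epithelia and is carried at high amounts by several carcinomas. The genes described here are 9 of the 58395 genes in the deposited table, matched by symbol: the receptors FOLR1 and FOLR2, the carriers SLC19A1 and SLC46A1, and the enzymes TYMS, SHMT1, SHMT2, MTHFD1 and MTHFD2. FOLR1 was chosen by its FPKM values in these same libraries, which were very high, so its level is given as a description with no test against other genes.

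The samples were 6 RNA sequencing libraries from cells labelled M14, an established human melanoma cell line, grown without attachment as floating spheres. The spheres were taken apart mechanically, labelled with an antibody to CD20, a surface protein of B cells that the gene MS4A1 encodes, and flow sorted into 3 CD20-positive and 3 CD20-negative samples, with no other treatment named in the labels. The single comparison asked how the sorted CD20-positive cells differ from the CD20-negative cells of the same spheres. Libraries carry the numbers 1 to 3 within a group, and the labels do not pair them. Nothing in the labels ties them to separate cultures, and the p-values then reflect only how far these samples spread, which may be technical. In such bulk samples, fewer cells that carry a transcript and less of it per cell cannot be told apart.

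Levels are in FPKM (fragments divided by exon length in kilobases and by a library size), and the fragments behind them were recovered from the values. The library size implied by the values was not the total of recovered fragments. It lay below that total in CD20-positive libraries 1 and 3, and above it in CD20-positive library 2 and each CD20-negative library. Relative to fragment totals, this scaling raised CD20-positive against CD20-negative levels, and its cause was not tested. The libraries held 15651173 to 17479731 fragments in CD20-positive and 16666542 to 17915936 in CD20-negative cells. Mitochondrially encoded genes took 11.9 to 20.6% of the fragments in CD20-positive libraries and 4.25 to 5.73% in CD20-negative libraries, and the part of this gap in the differences below was not tested. MS4A1 measured 1.24, 0.966 and 1.28 FPKM in CD20-positive libraries 1 to 3, against 0.225, 0.263 and 0.403 FPKM in CD20-negative libraries. Of 12 melanocyte markers, 5 reached a mean of 1 FPKM, and the lineage factor SOX10 and the pigment enzyme TYR lay at or near 0 in each library, as did MLANA. The melanosomal protein gene PMEL measured 14.8, 29.5 and 33.8 FPKM in CD20-positive libraries, against 8.73, 19.2 and 17.0 FPKM in CD20-negative libraries, which overlapped (limma, adjusted p = 0.613, and 0.0117 with replicate numbers fitted as a block). The pigment cell factor MITF had a mean of 2.12 FPKM, so the list was mixed, with 7 of its 12 markers under 1 FPKM. Of 14 markers of simple and Müllerian epithelium, the tissue type in which FOLR1 is best known, 9 reached that mean, among them KRT8, KRT18 and MSLN. The Müllerian lineage factors PAX8 (mean 0.343 FPKM), WT1 (0.0046 FPKM) and EMX2 (listed at 0), and also WFDC2 and CDH1, stayed under 1 FPKM. Of 14 macrophage markers, the cells in which FOLR2 is best known, 0 reached it and 7 were listed at 0 in the 6 libraries. Of 14 B-lineage markers 1 reached it. The epithelial markers summed to 633 to 763 FPKM in CD20-positive libraries, against 478 to 651 FPKM in CD20-negative libraries. The name of the line is taken from the labels, and its identity was not tested.

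FOLR1 (ENSG00000110195, GRCh38 chromosome 11, 72189558 to 72196323, plus strand) had by mean the highest level of the nuclear protein-coding genes in these cells. It measured 2860, 5655 and 5236 FPKM in CD20-positive libraries 1 to 3, against 1892, 4168 and 3437 FPKM in CD20-negative libraries 1 to 3. In both groups library 1 was the lowest, and the groups overlapped because CD20-positive library 1 lay below CD20-negative libraries 2 and 3. Among 19879 protein-coding genes outside the mitochondrial genome FOLR1 ranked 1 in 5 libraries and 2 in CD20-negative library 1, where TMSB10, an actin-binding peptide, was higher at 2805 FPKM. By mean over the 6 libraries FOLR1 stood at 3875 FPKM, TMSB10 at 1832, the translation factor EEF1A1 at 1454 and the actin ACTB at 977 FPKM. TMSB10 averaged 1491 ± 826 (CD20-positive) and 2173 ± 548 FPKM (CD20-negative), and EEF1A1 averaged 1132 ± 275 (CD20-positive) and 1776 ± 145 FPKM (CD20-negative). The FOLR1 level was 482, 935 and 880 times the median of the tested genes in CD20-positive libraries 1 to 3, against 316, 707 and 580 times in CD20-negative libraries.

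Fragments of FOLR1 numbered 71213, 149408 and 136431 in CD20-positive libraries, against 58616, 122485 and 112051 in CD20-negative libraries. They made up 0.407, 0.955 and 0.838% of all fragments in CD20-positive libraries, against 0.334, 0.735 and 0.625% in CD20-negative libraries. Counting error is therefore small for FOLR1, and the spread between libraries sets the precision of its mean. By percent of fragments FOLR1 was also higher in the CD20-positive library of each same-numbered pair, but by a smaller ratio than in FPKM. None of its exons overlapped an exon of another annotated gene.

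**Figure D1:**
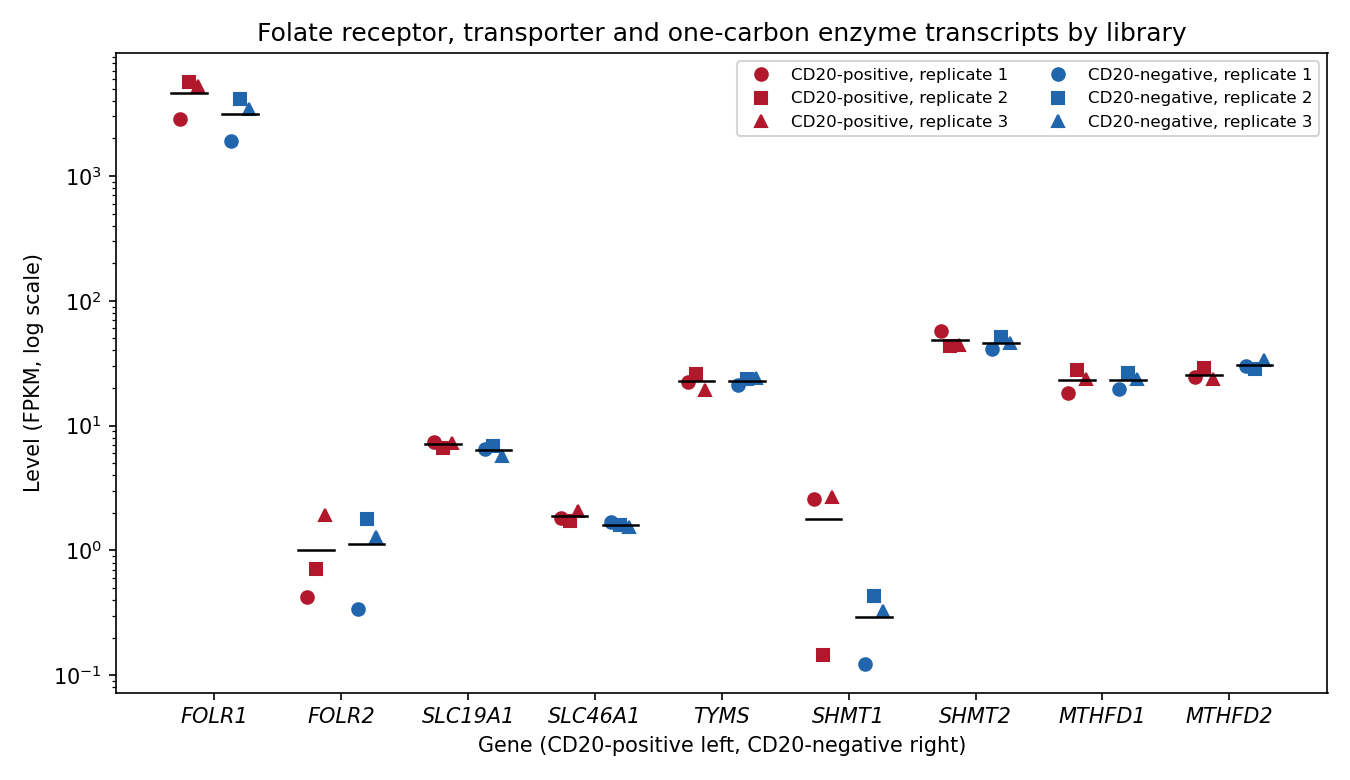
Level of each gene in the 6 libraries in FPKM on a log scale, with CD20-positive libraries (red) left of CD20-negative libraries (blue), symbols for replicates 1 to 3 and a black line at each group mean. FOLR1 lies between 1892 and 5655 FPKM, and FOLR2 and SHMT1 lie near 1 FPKM with the widest spread between libraries.

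The mean of FOLR1 was 4584 ± 1507 FPKM (SD) for CD20-positive and 3166 ± 1162 FPKM for CD20-negative libraries. With pairing ignored, this ratio of 1.45 did not exceed the spread between libraries (exact permutation test, two-sided, p = 0.3). On the log2(FPKM + 1) scale the difference, CD20-positive minus CD20-negative, was 0.55 ± 0.41 (SE), with a 95% interval of -0.43 to 1.52 (limma, adjusted p = 0.719). Leaving out 1 library moved it by over 1.5 times, to 0.21 without CD20-negative library 1 and 0.86 without CD20-positive library 1 (limma, adjusted p = 0.976 and 0.188). The ratio within same-numbered libraries was 1.51, 1.36 and 1.52 for replicates 1, 2 and 3, so FOLR1 was higher in the CD20-positive library of each pair. With the replicate number fitted as a block the SE was 0.37 and the interval -0.26 to 1.36 (limma, adjusted p = 0.438). The log2 differences within pairs were 0.60, 0.44 and 0.61. They lay closer together than this SE, which limma also draws from other genes of similar level. With a filter of 10 FPKM on the genes the SE was 0.47 for the same difference of 0.55. This p-value therefore does not measure the spread of FOLR1 alone. A transcript was higher in CD20-positive cells in all 3 pairs for 21.8% of the 13155 genes tested, which averaged 1 FPKM or more. The difference moved with the scaling: it was 0.65 when each library was scaled to its FPKM total without mitochondrial genes, 0.03 with the total including them, and -0.69 with quantile normalisation, which forces 1 shared distribution on the libraries. FOLR1 took 1.17, 2.76 and 2.59% of the FPKM outside mitochondrial genes in CD20-positive libraries, against 0.783, 1.79 and 1.53% in CD20-negative libraries.

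Library 1 held about the same part of the FOLR1 level of the other libraries in both groups, 0.525 times the mean of libraries 2 and 3 in CD20-positive and 0.498 times in CD20-negative cells. FOLR2 (0.320 times in CD20-positive and 0.220 times in CD20-negative cells) and MTHFD1 (0.713 and 0.792 times) were also lower in library 1 of both groups. For SLC46A1 the corresponding value was 0.955 times in CD20-positive and 1.08 times in CD20-negative cells, and for TYMS 0.984 and 0.893 times. The low value of library 1 was thus shared by some of the genes described here and not by each. MSLN, which encodes the surface protein mesothelin and is on the epithelial list, stood at 0.524 times in CD20-positive and 0.436 times in CD20-negative cells. It measured 79.2, 129.4 and 173 FPKM in CD20-positive libraries, against 33.6, 82.2 and 71.9 FPKM in CD20-negative libraries, and the groups overlapped. MSLN was called with the block only (limma, adjusted p = 0.519 without the block and 0.00963 with it). It was the 1 such gene of 9 tested epithelial markers, where 5.83% of all tested genes were called. The epithelial list was mixed in library 1. KRT19 was highest there in both groups (141.8 and 80.6 FPKM) and MUC16 lowest (0.625 and 0.326 FPKM). KRT8 was highest in CD20-positive library 1 (276 FPKM) and lowest in CD20-negative library 1 (174 FPKM). The 5 protein-coding genes with the highest correlation with FOLR1 over the 6 libraries, among 4193 with a mean of at least 10 FPKM, were GAS1, FMOD, DNER, IPO9 and PTPRF (Pearson r from 0.990 to 0.986). DNER, a transmembrane ligand of Notch receptors, measured 18.3, 42.5 and 40.2 FPKM in CD20-positive libraries, against 13.2, 26.6 and 25.4 FPKM in CD20-negative libraries. These correlations rest on 6 libraries that share their scaling and their replicate numbers, and are given as a description.

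**Figure D2:**
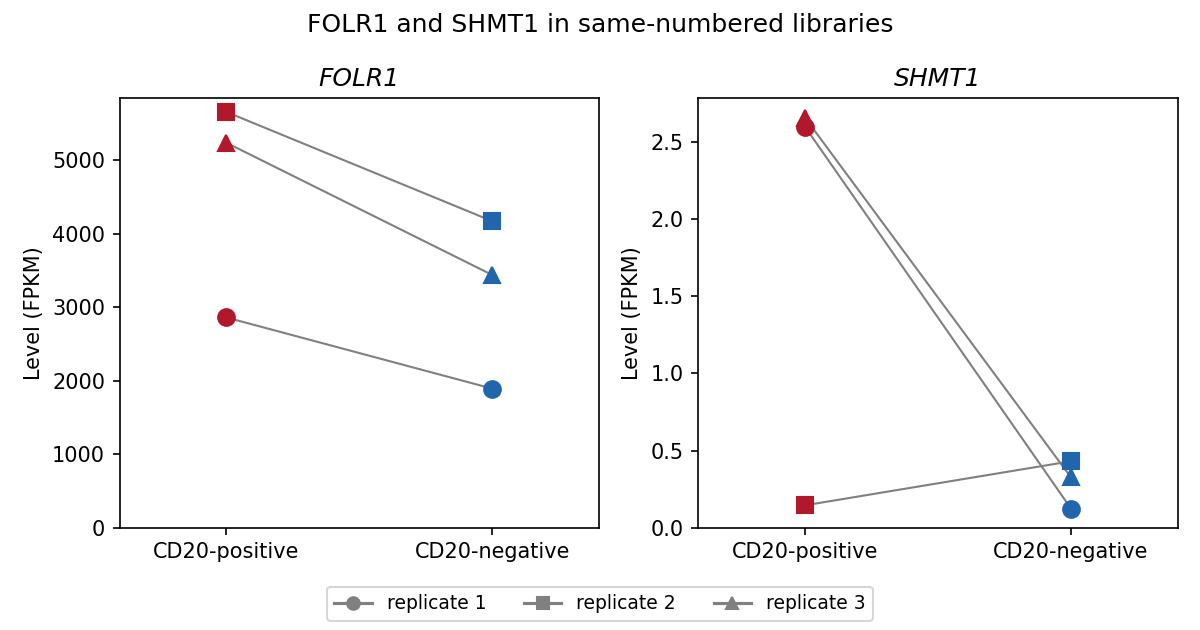
Levels of FOLR1 (left) and SHMT1 (right) in FPKM, with CD20-positive libraries in red, CD20-negative libraries in blue, and a grey line joining libraries with the same replicate number. FOLR1 lies higher in the CD20-positive library of each pair, and SHMT1 lies near 2.6 FPKM in CD20-positive libraries 1 and 3 and under 0.5 FPKM in the other libraries.

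FOLR2 (ENSG00000165457, chromosome 11, 72216601 to 72221950), which encodes folate receptor beta of myeloid cells, lies on the same strand of chromosome 11, downstream of FOLR1, and was close to the limit of detection. It measured 0.421, 0.705 and 1.92 FPKM in CD20-positive libraries, against 0.338, 1.78 and 1.29 FPKM in CD20-negative libraries, from 9, 16 and 43 fragments against 9, 45 and 36. The groups overlapped over nearly their whole range (1.02 ± 0.797 FPKM in CD20-positive against 1.14 ± 0.734 FPKM in CD20-negative libraries, SD, exact permutation test, p = 1), and the log2 difference was -0.09 with an interval of -0.95 to 0.77. FOLR3, a secreted family member in the same cluster, and the pseudogene FOLR1P1 were listed at 0 in each library. Within the receptor family FOLR1 therefore made up 99.99, 99.99 and 99.96% of the summed FPKM in CD20-positive libraries, against 99.98, 99.96 and 99.96% in CD20-negative libraries. The longest stretch shared by annotated transcripts of FOLR1 and FOLR2 was 29 bases. Whether some FOLR2 fragments came from the far more abundant FOLR1 was not tested. Downstream of FOLR2 lies INPPL1, a lipid phosphatase gene, at 167, 177 and 200 FPKM in CD20-positive libraries, against 120, 155 and 129 FPKM in CD20-negative libraries. Between FOLR3 and INPPL1 only FOLR1 exceeded 3 FPKM in any library.

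Both folate carriers were present at low levels. SLC19A1 (ENSG00000173638, chromosome 21, 45493572 to 45544411), the reduced folate carrier, measured 7.42, 6.60 and 7.30 FPKM in CD20-positive libraries, against 6.48, 6.88 and 5.71 FPKM in CD20-negative libraries. Its groups overlapped through the libraries of replicate 2, and the log2 difference was 0.14 with an interval of -0.16 to 0.44 (limma, adjusted p = 0.763). Exons of COL18A1 on the opposite strand cover 14.01% of the SLC19A1 exon length. COL18A1 averaged 14.9 ± 3.66 (CD20-positive) and 7.33 ± 1.19 FPKM (CD20-negative), with no overlap between groups. It was called higher with the block only (limma, adjusted p = 0.277 without the block and 0.00768 with it). Whether COL18A1 fragments add to the SLC19A1 level was not tested. SLC46A1 (ENSG00000076351, chromosome 17, 28394756 to 28407197), the proton-coupled folate transporter, measured 1.82, 1.73 and 2.07 FPKM in CD20-positive libraries, against 1.69, 1.60 and 1.53 FPKM in CD20-negative libraries. It was the 1 gene of the 9 whose groups did not overlap, where 8.87% of all tested genes had no overlap with CD20-positive cells higher and 6.14% with CD20-positive cells lower. The ratio of its means was 1.17 (exact permutation test, p = 0.1, and no smaller p is possible with 3 libraries a side), and the log2 difference of 0.14 did not pass the threshold (interval -0.17 to 0.45, limma, adjusted p = 0.775). Exons on the opposite strand, mainly those of SARM1, cover 61.5% of its exon length, and the use of strand in counting is not given, so its level is uncertain. The ratio of SLC19A1 to SLC46A1 was 4.09, 3.80 and 3.53 in CD20-positive libraries, against 3.83, 4.31 and 3.74 in CD20-negative libraries (exact permutation test, p = 0.6, and 0.7 adjusted over 6 ratios).

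The serine hydroxymethyltransferases pass a carbon from serine to folate, SHMT2 in mitochondria and SHMT1 in the cytosol. SHMT2 (ENSG00000182199, chromosome 12, 57229327 to 57234935) measured 57.6, 43.7 and 44.4 FPKM in CD20-positive libraries, against 41.2, 51.0 and 46.1 FPKM in CD20-negative libraries. The groups overlapped, with a log2 difference of 0.07 and an interval of -0.34 to 0.48 (limma, adjusted p = 0.935). SHMT1 (ENSG00000176974, chromosome 17, 18327860 to 18363563) measured 2.60, 0.146 and 2.66 FPKM in CD20-positive libraries, against 0.124, 0.431 and 0.326 FPKM in CD20-negative libraries. CD20-positive libraries 1 and 3 thus stood above the rest, while CD20-positive library 2 lay within the range of the CD20-negative libraries. Within same-numbered libraries the ratio was 20.9, 0.338 and 8.15, so SHMT1 was higher in 2 of 3 pairs.

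The gap in SHMT1 was larger than counting error. Its fragments numbered 286, 17 and 306 in CD20-positive libraries, against 17, 56 and 47 in CD20-negative libraries. The exact 95% Poisson intervals, which cover counting error only, were 2.31 to 2.92 FPKM for CD20-positive library 1, 0.0848 to 0.233 for library 2 and 2.37 to 2.97 for library 3, and the highest CD20-negative library reached 0.326 to 0.560. The mean was 1.80 ± 1.43 FPKM (SD) for CD20-positive and 0.294 ± 0.156 FPKM for CD20-negative libraries (exact permutation test, p = 0.3). On the log2 scale the difference was 0.94 ± 0.45 (SE) with an interval of -0.13 to 2.01, and it did not pass the threshold (limma, adjusted p = 0.588, and 0.381 with the replicate block). Without CD20-positive replicate 2 it was 1.495 (limma, adjusted p = 0.301), and on recovered fragments with voom 1.91 (adjusted p = 0.656). The ratio of SHMT2 to SHMT1 accordingly ranged from 16.7 to 300.4 in CD20-positive libraries and from 118 to 332 in CD20-negative libraries (exact permutation test, p = 0.3).

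The 250 bases upstream of the SHMT1 start in RefSeq (GRCh38.p14, minus strand, chr17:18363551-18363800) are shown because SHMT1 was the gene whose level set single libraries apart. Capitals mark matches on either strand to 2 promoter motifs, the CCAAT box (CCAAT) and the GC box (GGGCGG).
SHMT1: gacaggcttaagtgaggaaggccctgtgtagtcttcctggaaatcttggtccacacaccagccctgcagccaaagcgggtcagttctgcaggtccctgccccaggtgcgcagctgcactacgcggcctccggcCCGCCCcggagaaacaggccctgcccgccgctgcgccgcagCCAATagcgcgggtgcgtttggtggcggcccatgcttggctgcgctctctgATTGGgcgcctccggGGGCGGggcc
The window holds 2 CCAAT matches and 2 GC box matches, no TATAAA and no CACGTG, and 68.4% of it is G or C. At least 1 match to CCAAT is found in 32.0% of the 35116 RefSeq windows of this length, to GGGCGG in 42.6%, to TATAAA in 10.7% and to CACGTG in 6.34%. These matches are a description of the letters, not of bound sites.

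FLII, an actin-binding gelsolin-family gene on the same arm of chromosome 17 and on the same strand (18244836 to 18258916), was chosen after its values were seen, because it lies within 100 kb of SHMT1 and was high in the same libraries. It measured 6.76, 2.31 and 6.52 FPKM in CD20-positive libraries, against 3.19, 4.22 and 3.01 FPKM in CD20-negative libraries (Pearson r with SHMT1 0.946 over 6 libraries, a description). TOP3A, a topoisomerase gene that lies between both, did not share this order: it measured 1.37, 2.06 and 1.26 FPKM in CD20-positive libraries, against 0.830, 0.676 and 0.242 FPKM in CD20-negative libraries. LLGL1, on the other side of FLII, measured 11.4, 6.72 and 6.82 FPKM in CD20-positive libraries, against 7.53, 7.60 and 7.64 FPKM in CD20-negative libraries. MIEF2, also between both, was highest in CD20-positive library 2 (0.629 FPKM) and CD20-negative library 1 (0.55 FPKM). SMCR8, at most 0.112 FPKM, was highest in CD20-positive libraries 1 and 3.

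MTHFD1 and MTHFD2 interconvert the carbon-carrying forms of folate, MTHFD1 in the cytosol and MTHFD2 in mitochondria. MTHFD1 (ENSG00000100714, chromosome 14, 64388031 to 64463457) measured 18.4, 27.7 and 23.8 FPKM in CD20-positive libraries, against 19.8, 26.5 and 23.4 FPKM in CD20-negative libraries. Same-numbered libraries lay close together and differed by a ratio of 0.929, 1.04 and 1.02, and the log2 difference was -0.0052 with an interval of -0.46 to 0.45. MTHFD2 (ENSG00000065911, chromosome 2, 74198562 to 74217565) measured 24.5, 28.9 and 23.6 FPKM in CD20-positive libraries, against 30.1, 28.4 and 33.3 FPKM in CD20-negative libraries. Its groups overlapped only through CD20-positive library 2, which lay above CD20-negative library 2. The log2 difference was -0.25 ± 0.15 (SE), with an interval of -0.59 to 0.10 (limma, adjusted p = 0.653, and 0.386 with the replicate block). With the replicate block and each library scaled to its FPKM total it was -0.74 and passed (limma, adjusted p = 0.01055, and 0.0639 without the block). That scaling moved the median of all tested genes to -0.41 and called 29.8% of them, 0.684% higher and 29.1% lower. Relative to that median the MTHFD2 difference was -0.33. Exons on the opposite strand cover 33.2% of the MTHFD2 exon length, and those of SLC4A5, the named gene among them, gave a mean of 0.0493 FPKM.

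TYMS (ENSG00000176890, chromosome 18, 657604 to 673578), thymidylate synthase, uses a folate-borne carbon to make the DNA building block thymidylate and is the target of fluorouracil. It measured 22.4, 26.1 and 19.5 FPKM in CD20-positive libraries, against 21.3, 23.5 and 24.2 FPKM in CD20-negative libraries. CD20-positive libraries held both the highest and the lowest value, and the log2 difference was -0.03 with an interval of -0.39 to 0.33 (limma, adjusted p = 0.974). With the replicate block and scaling to the FPKM total it was -0.52 (limma, adjusted p = 0.04955, and 0.134 without the block), which is -0.11 relative to the median of all tested genes there. Exons of genes on the opposite strand, ENOSF1 and TYMSOS, cover 46.6% of its exon length, and ENOSF1 averaged 7.41 ± 2.14 (CD20-positive) and 5.82 ± 0.895 FPKM (CD20-negative).

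**Figure D3:**
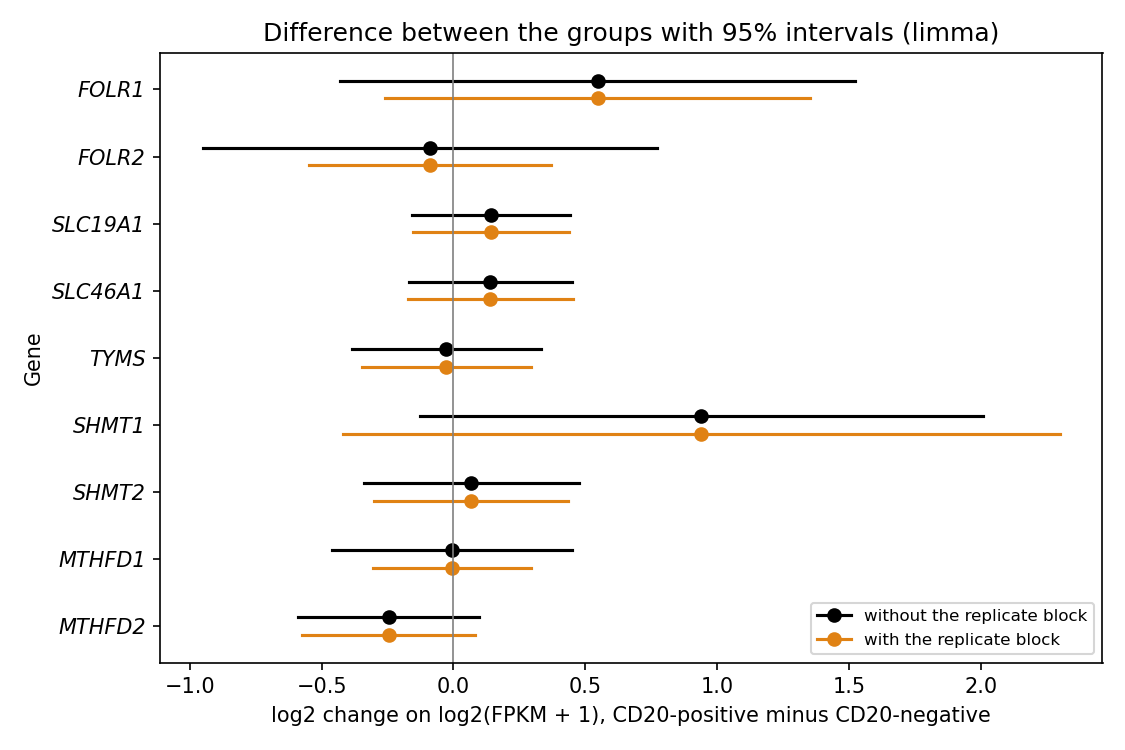
Difference between the groups (CD20-positive minus CD20-negative, on log2(FPKM + 1)) for the 9 genes, with 95% intervals from limma without (black) and with (orange) the replicate block. Each interval includes 0, and those of SHMT1 (-0.13 to 2.01 without the block) and FOLR1 (-0.43 to 1.52) are the widest along with FOLR2.

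Over the 9 genes, each of which reached the mean of 1 FPKM, 0 were called in the limma fit without the block and 0 with it, and 0 had an unadjusted p under 0.05 in either fit. Among all tested genes 0.0076% (1 gene) were called without the block and 5.83% (767 genes) with it, and 9.20% had an unadjusted p under 0.05 without the block. The median difference of the 9 was 0.07, against 0.00 over all tested genes, and 5 of the 9 were above 0, where 50.1% of all tested genes were. Among these 5, SHMT1 passed the filter of 1 FPKM only through CD20-positive libraries 1 and 3. Its group means were 1.80 (CD20-positive) and 0.294 FPKM (CD20-negative), so the filter favoured its direction. Higher in all 3 pairs were 2 of the 9, FOLR1 and SLC46A1, where 21.8% of all tested genes were higher. Lower in all 3 pairs were 0, where 20.3% of tested genes were lower. For SLC19A1, SLC46A1, TYMS, SHMT2, MTHFD1 and MTHFD2 the intervals without the block lay within -0.59 and 0.48, so larger log2 differences lie outside them, whereas those of FOLR1 and SHMT1 included a log2 difference of 1 and that of FOLR2 reached -0.95.

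The mean levels ordered the 9 genes as FOLR1 at 3875, SHMT2 at 47.3, MTHFD2 at 28.1, MTHFD1 at 23.3, TYMS at 22.8, SLC19A1 at 6.73, SLC46A1 at 1.74, FOLR2 at 1.08 and SHMT1 at 1.05 FPKM. MTHFD2, MTHFD1 and TYMS had overlapping values across libraries, as had SLC46A1, FOLR2 and SHMT1, so the order within these runs is not beyond their spread. Related enzymes were set side by side per length. The ratio of MTHFD2 to its paralog MTHFD2L was 22.0, 31.3 and 26.2 in CD20-positive libraries, against 23.2, 33.8 and 33.1 in CD20-negative libraries (exact permutation test, p = 0.5). The ratio of MTHFD1L, the mitochondrial enzyme that releases formate, to MTHFD1 was 1.27, 0.696 and 0.775 in CD20-positive libraries, against 1.28, 0.738 and 0.822 in CD20-negative libraries (exact permutation test, p = 0.7). In both groups this ratio was highest in library 1.

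The surrounding pathway was read from 8 further lists with 117 genes, of which 100 were tested. In the fit without the block 0 of the 100 were called, and with the block 3 were higher and 0 lower, where 3.19% of all tested genes were called higher and 2.64% lower. With each library scaled to its FPKM total and no block, 0 of the 100 were called higher and 11 lower, where 10.5% of all tested genes were called, 0.213% higher and 10.3% lower. With the block and the deposited scaling the genes called were ABCC3, RRM2 and CDC45. Group means below are given with their SD over 3 libraries each. Where no overlap is given for a gene, 8.87% of all tested genes had none with CD20-positive cells higher. Another 6.14% had none with CD20-positive cells lower. ABCC3, an efflux pump that also carries antifolates, averaged 8.70 ± 3.79 (CD20-positive) and 5.49 ± 2.41 FPKM (CD20-negative), with a log2 difference of 0.57 (limma, adjusted p = 0.649, and 0.033 with the block). RRM2, the small subunit of ribonucleotide reductase, averaged 8.32 ± 2.53 (CD20-positive) and 4.44 ± 1.36 FPKM (CD20-negative), with no overlap and a log2 difference of 0.77 (limma, adjusted p = 0.493, and 0.00886 with the block). CDC45, a replication helicase factor on the S phase list named because it was called, averaged 20.4 ± 4.38 (CD20-positive) and 13.7 ± 4.51 FPKM (CD20-negative), with a log2 difference of 0.57 (limma, adjusted p = 0.584, and 0.0436 with the block).

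Other genes of folate uptake, retention and release had 8 of 12 tested and a median of 0.12. FPGS, which adds the glutamate tail that keeps folate in the cell, averaged 24.1 ± 5.99 (CD20-positive) and 22.3 ± 2.56 FPKM (CD20-negative). GGH, which removes that tail, averaged 18.0 ± 1.70 (CD20-positive) and 18.8 ± 5.13 FPKM (CD20-negative), and the efflux pump ABCC1 averaged 2.73 ± 0.483 (CD20-positive) and 2.03 ± 0.432 FPKM (CD20-negative). The other genes of the folate cycle had 14 of 18 tested, a median of -0.05 and 0 called. MTHFD1L averaged 20.3 ± 2.56 (CD20-positive) and 21.4 ± 3.37 FPKM (CD20-negative). MTFMT, which formylates the mitochondrial initiator tRNA, averaged 5.01 ± 1.65 (CD20-positive) and 7.42 ± 0.921 FPKM (CD20-negative). Its log2 difference was -0.52 (limma, adjusted p = 0.523, and 0.0500021 with the block, just above the threshold). MTHFS, which recycles formyl folate, averaged 1.41 ± 0.253 (CD20-positive) and 2.22 ± 0.0586 FPKM (CD20-negative) with no overlap between groups (-0.42, limma, adjusted p = 0.458). Exons of other genes overlap 34.0% of the MTHFS exon length, so its level is uncertain. ALDH1L1, the cytosolic enzyme that oxidises formyl folate, did not exceed 0.01 FPKM in any library.

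Genes of serine synthesis and uptake had 8 of 8 tested, a median of 0.15 and 0 called. SLC1A5, a carrier of glutamine and other neutral amino acids, averaged 65.6 ± 5.37 (CD20-positive) and 47.6 ± 3.49 FPKM (CD20-negative) with no overlap (log2 difference 0.45, limma, adjusted p = 0.451, and 0.112 with the block). PSAT1, an enzyme of serine synthesis, averaged 68.6 ± 25.0 (CD20-positive) and 76.2 ± 26.2 FPKM (CD20-negative), and the neutral amino acid carrier SLC1A4 averaged 4.89 ± 1.26 (CD20-positive) and 3.42 ± 1.11 FPKM (CD20-negative). De novo purine synthesis, which uses folate-borne carbons, had 13 of 13 tested and a median of -0.12. Of the 13, 3 were above 0, where 50.1% of all tested genes were. IMPDH2 averaged 134.6 ± 10.8 (CD20-positive) and 146.5 ± 15.5 FPKM (CD20-negative), and PRPS1 averaged 39.6 ± 9.82 (CD20-positive) and 51.9 ± 5.75 FPKM (CD20-negative). PAICS averaged 39.0 ± 4.33 (CD20-positive) and 45.4 ± 1.96 FPKM (CD20-negative) with no overlap. None of these genes passed the threshold (limma, adjusted p from 0.616 to 0.868).

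Other genes of thymidylate and deoxynucleotide supply had 13 of 13 tested and a median of 0.09. TK1, thymidine kinase of dividing cells, averaged 88.4 ± 6.51 (CD20-positive) and 74.3 ± 2.35 FPKM (CD20-negative) with no overlap (log2 difference 0.24, limma, adjusted p = 0.657). RRM1, the large subunit of ribonucleotide reductase, averaged 65.7 ± 12.7 (CD20-positive) and 51.4 ± 5.31 FPKM (CD20-negative). The mitochondrial kinase TK2 averaged 3.84 ± 0.401 (CD20-positive) and 2.95 ± 0.411 FPKM (CD20-negative) with no overlap. The methionine cycle, transsulfuration and polyamine list had 11 of 15 tested, with 0 of 11 above 0 (50.1% of all tested genes) and a median of -0.10. That median was 0.0011 when each library was scaled to its FPKM total without mitochondrial genes, against 0.087 over all tested genes. MAT2A, which makes the methyl donor S-adenosylmethionine, averaged 134.7 ± 41.4 (CD20-positive) and 132.5 ± 13.8 FPKM (CD20-negative). The spermidine and spermine enzymes averaged 40.9 ± 17.2 (CD20-positive) and 61.1 ± 6.81 FPKM (CD20-negative) for SRM and 127.6 ± 9.18 (CD20-positive) and 128.2 ± 13.6 FPKM (CD20-negative) for SMS, and AMD1 averaged 29.1 ± 5.91 (CD20-positive) and 39.6 ± 6.72 FPKM (CD20-negative).

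TYMS is switched on with S phase, and MTHFD2, SHMT2, PSAT1 and PHGDH are known targets of the stress factor ATF4, so both programmes were listed beside them. The S phase list had 20 of 20 tested and a median of 0.20, with CDC45 called in the fit with the block. Of the 20, 17 were above 0, where 50.1% of all tested genes were. With each library scaled to its FPKM total, 2 of 20 were above 0. The median was then -0.30, against -0.41 over all tested genes. PCNA averaged 129.9 ± 2.94 (CD20-positive) and 125.5 ± 3.91 FPKM (CD20-negative), and MCM7 averaged 111.7 ± 6.96 (CD20-positive) and 95.03 ± 24.7 FPKM (CD20-negative). CCNE1 averaged 31.8 ± 2.41 (CD20-positive) and 25.3 ± 2.17 FPKM (CD20-negative), and GINS2 averaged 15.4 ± 0.668 (CD20-positive) and 20.1 ± 3.24 FPKM (CD20-negative), both with no overlap. The ATF4 list had 13 of 18 tested, a median of 0.03 and 0 called. The amino acid carrier subunit SLC7A5 averaged 109.4 ± 9.65 (CD20-positive) and 79.0 ± 11.8 FPKM (CD20-negative), and its partner SLC3A2 averaged 56.3 ± 8.19 (CD20-positive) and 38.6 ± 6.87 FPKM (CD20-negative), both with no overlap (limma, adjusted p = 0.503 and 0.485). DDIT4 averaged 145.1 ± 8.95 (CD20-positive) and 143.0 ± 21.9 FPKM (CD20-negative), and 41.2% of its exon length is shared with exons of other genes.

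**Figure D4:**
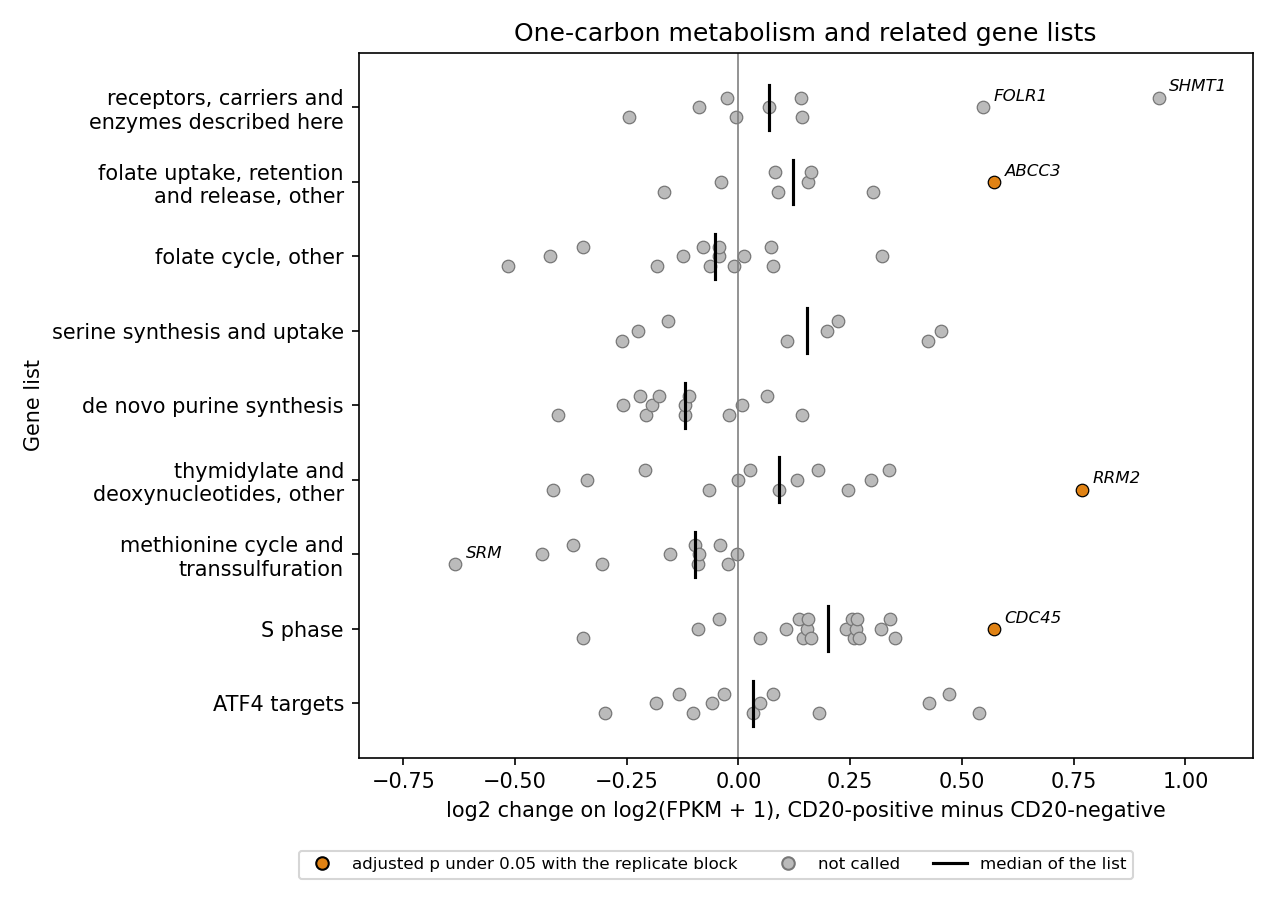
Difference between the groups (CD20-positive minus CD20-negative, on log2(FPKM + 1)) for each tested gene of the 9 described here and of 8 further lists, with a black bar at each median and orange points for genes with an adjusted p under 0.05 in the fit with the replicate block. Orange are ABCC3, RRM2 and CDC45, and the medians lie between -0.12 and 0.20.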

How the data were processed

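Per the labels' protocols, libraries of poly(A) RNA came from an Illumina TruSeq kit and were read on a NovaSeq. The submitters' processing notes name the GRCh38 (hg38) build and the tools HISAT2, DESeq2 and featureCounts 1.5.0. Their roles, their settings and any use of strand are not given in those notes. The deposited table gives 1 value for each gene and library without a unit. The deposited values were taken as FPKM from the values: times exon length in GENCODE release 29, 98.1 to 98.6% of low values (up to 20 fragments, tolerance 0.02) were whole multiples of 1 step per library, and these steps gave the recovered fragments. That annotation held 58275 of the identifiers and lacked 120.

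The main fit was limma 3.58.1 in R 4.3.3 (trend and robust prior) on log2(FPKM + 1) for the 13155 genes that averaged at least 1 FPKM, as CD20-positive minus CD20-negative, with p adjusted by Benjamini-Hochberg over these genes, a threshold of 0.05 and 95% intervals. This scale understates fold changes of low genes. Deviations from group means correlated between same-numbered libraries at 0.67, 0.24 and 0.51, all above 0.1. Same numbers were treated as pairs on these values alone, and a fit with the replicate block is given too. CD20-positive library 3 also correlated with CD20-negative library 2 at 0.43, and CD20-positive library 2 with CD20-negative library 3 at 0.40, both above the 0.24 of replicate 2. These values thus set replicate 1 apart, but do not show which of libraries 2 and 3 belong together. The labels state no pairs, so results by pair and with the block assume them. Single values were compared by two-sided exact permutation tests. Alternatives covered the pseudocount, filter, scaling, block, left-out libraries and voom on recovered fragments with trimmed-mean (TMM) factors. The fit was also run on simulated fragments without a replicate effect or a mitochondrial gap, so that run does not test how it handles these.

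The genes described and the lists were chosen with earlier results of these data known. From each further list the text names the 2 genes with the highest mean and the 2 with the smallest p, and for likeness to FOLR1 the 5 with the highest correlation. Some genes that this rule takes are not reported here. CDC45, FLII and genes that overlap or neighbour the 9 were chosen after their values were seen. RefSeq promoter windows were found for 6 of the 9.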

Additional observations from a re-analysis of the deposited data

How the results depend on the processing

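The fit without a block called 1 gene, the mitochondrial tRNA gene MT-TE, named after its value was seen. The count was 1 with a pseudocount of 0.1, a filter of 10 FPKM or scaling to the FPKM total without mitochondrial genes, 2 with a pseudocount of 10, 9 with quantile normalisation, 1383 (28 higher, 1355 lower) with the FPKM total, and 0 without a filter or with voom. With the replicate block it was 767, and with voom and the block 1530. Leaving out 1 library gave 0 to 322, the highest without CD20-positive replicate 1. Alternatives chosen after seeing the data all had the block: 954 at a filter of 10 FPKM, 943 with the FPKM total without mitochondrial genes, 3924 with the FPKM total, and 2141, 1 and 331 without replicates 1, 2 and 3. Of the pathway lists 0 genes were called without the block and 3 with the replicate block, and 11, all lower, with the FPKM total, a setting chosen after seeing the data. The replicate block also brought MSLN, PMEL and COL18A1 under the threshold, and with the FPKM total MTHFD2 and TYMS, and changed no other call given here.

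Of the log2 differences of the 9 genes, SHMT1 and MTHFD2 kept their direction in each setting that gave a value (0.19 to 2.60 and -0.74 to -0.13). FOLR1 was -0.69 with quantile normalisation. With the FPKM total, with or without the block, SLC19A1 was -0.31, SLC46A1 -0.18 and SHMT2 -0.44, where the median of all genes was -0.41. Without mitochondrial genes in the total, TYMS was 0.074 and MTHFD1 0.10, with or without the block, where that median was 0.087. Leaving out 1 library gave 0.21 to 0.86 for FOLR1, -0.39 to 0.13 for FOLR2, -0.13 to 0.073 for TYMS, -0.058 to 0.14 for SHMT2 and -0.13 to 0.15 for MTHFD1. With the block, FOLR2 was 0.22 without replicate 2, TYMS 0.11 without replicate 3, SHMT2 -0.13 without replicate 1 and MTHFD1 0.043 without replicate 1. The ratio of SLC19A1 to SLC46A1 differed by -0.13 to 0.0062 (log2) when 1 replicate number was left out. The causes of these changes were not tested. With 3 libraries a group, no exact p below 0.1 is possible, and FOLR2 and SHMT1 rest on as few as 9 and 17 fragments in a library.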
